A study of Mus musculus with 18 samples.

Results

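Bone morphogenetic proteins (BMPs) are secreted ligands that bind a pair of type I and a pair of type II serine/threonine kinase receptors at the cell surface. The receptors phosphorylate SMAD1 and SMAD5, which enter the nucleus with SMAD4 and bind the control regions of target genes. Among the best known direct targets are the Id genes, whose proteins lack a DNA-binding domain and hold basic helix-loop-helix factors such as the E proteins away from DNA, and Smad6, whose product dampens the same pathway. In the developing palate BMP signals act in both epithelium and mesenchyme, and the anterior and posterior parts of the shelf use different ligands and targets.

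The genes described here are 10 members of this pathway chosen by name: the type I receptors Bmpr1a and Bmpr1b, the type II receptor Bmpr2, the receptor-regulated Smad1 and Smad5, the inhibitory Smad6, and Id1, Id2, Id3 and Id4. They were measured by 27 of the 45101 probe sets on the array, every probe set that the platform annotation gives to 1 of these symbols alone, and they are 10 of 18193 genes tested. A gene was represented by its brightest probe set, and all its probe sets were also tested separately. The data are 18 Affymetrix arrays of whole palate RNA from C57BL/6J mouse embryos at embryonic day 15.5, 6 in each of 3 groups. All 3 groups carried 2 floxed alleles of the TGF-beta receptor gene Tgfbr2 (Tgfbr2 fl/fl). The control anterior and control posterior groups had that genotype alone, and the mutant posterior group also carried K14-Cre (K14-Cre;Tgfbr2 fl/fl), a recombinase driven by a keratin promoter and active in epithelial cells. The deletion is therefore limited to epithelium within a tissue that also holds mesenchyme, muscle and vessels, and controls and mutants came from separate litters, per the series design text. The study's question was how TGF-beta signalling in palatal epithelium bears on the muscle beneath it. Values are log2 intensities, so a difference of 1 is a doubling, and in whole tissue fewer cells of a type and less RNA per cell cannot be told apart.

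Several arrays stood apart before any comparison was made. Hybridisation spike-in controls, RNAs added in known amount, separated arrays 1 to 3 from arrays 4 to 6 within each genotype: they averaged 10.81 to 10.91 in control arrays 1 to 3 and 11.15 to 11.38 in control arrays 4 to 6, against 11.63 to 12.11 in mutant arrays 1 to 3 and 10.96 to 11.05 in mutant arrays 4 to 6. The labels name no such sets, and no set held both genotypes. Labelling spike-ins, RNAs added before amplification, parted the genotypes, at 7.28 to 8.98 on mutant and 9.56 to 11.50 on control arrays, and the part of this in the genotype differences was not tested. Mutant array 1 also differed in tissue content. The mean log2 level of 10 epithelial markers was 8.87 on this array and 10.73 to 11.61 on the other mutant arrays, the mean of 3 posterior palate markers was 7.76 against 8.94 to 10.57 on the other mutant arrays and 10.02 to 10.30 in posterior controls, and the mean of 11 skeletal muscle markers was 11.84, the highest of the series. The mean of 3 anterior palate markers was 8.66 on mutant array 1, 6.46 to 7.23 on the other mutant arrays and 6.71 to 7.53 in posterior controls. In anterior controls it was 9.54 to 10.54. Mutant arrays 2, 3 and 4 also lay below every posterior control in posterior palate markers. Mesenchyme markers averaged at least 10.46 on every array and epithelial markers other than on mutant array 1 averaged 10.73 to 11.83, so both tissues of the palate were represented in each group. Tgfbr2 itself read 10.46 ± 0.20 in control and 11.01 ± 0.27 in mutant posterior palate (SD, n = 6 each), higher in mutants by 0.55 (limma adjusted p = 0.00879). This goes against the direction of a deletion; the deletion is limited to epithelium and the position of the probe set relative to the floxed part is not known here, so the value does not check the labels.

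The 250 bases upstream of the annotated start were taken from RefSeq (build GRCm38.p6) for 9 of the 10 genes, with 13 start sites between them; Id1 had no entry in the table used. Those of the genes on which the results turn are shown because SMAD proteins act through promoters and upstream elements: both receptors that rose in the mutants, Smad6, and both Id genes that varied most among mutant arrays. Each is printed 5′ to 3′ on the gene's own strand, from Bmpr1a at chr14:34502547-34502796 (minus), Bmpr2 at chr1:59764029-59764278 (plus), Smad6 at chr9:64022060-64022309 (minus), Id2 at chr12:25096093-25096342 (minus) and Id4 at chr13:48260866-48261115 (plus). Capitals mark every match to 3 short motifs that have been linked to SMAD binding. The first is GGCGCC, which reads alike on both strands. The second is GGAGCC, whose form on the opposite strand, GGCTCC, was also searched. The third is CAGAC, searched likewise on the opposite strand as GTCTG.
Bmpr1a: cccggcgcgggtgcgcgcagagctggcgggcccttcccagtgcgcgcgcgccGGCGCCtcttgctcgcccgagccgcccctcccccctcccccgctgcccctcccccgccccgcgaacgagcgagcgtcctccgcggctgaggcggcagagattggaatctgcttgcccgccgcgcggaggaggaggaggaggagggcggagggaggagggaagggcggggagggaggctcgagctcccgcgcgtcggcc
Bmpr2: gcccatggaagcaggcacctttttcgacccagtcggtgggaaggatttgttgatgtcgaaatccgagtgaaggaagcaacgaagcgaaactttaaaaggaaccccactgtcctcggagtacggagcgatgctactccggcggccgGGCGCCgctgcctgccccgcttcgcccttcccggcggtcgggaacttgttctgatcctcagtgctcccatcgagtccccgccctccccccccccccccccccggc
Smad6: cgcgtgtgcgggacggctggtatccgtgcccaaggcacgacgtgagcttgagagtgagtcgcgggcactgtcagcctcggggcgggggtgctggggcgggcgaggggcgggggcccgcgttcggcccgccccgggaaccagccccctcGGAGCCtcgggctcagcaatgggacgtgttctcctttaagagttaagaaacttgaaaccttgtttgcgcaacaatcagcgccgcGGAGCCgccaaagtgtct
Id2: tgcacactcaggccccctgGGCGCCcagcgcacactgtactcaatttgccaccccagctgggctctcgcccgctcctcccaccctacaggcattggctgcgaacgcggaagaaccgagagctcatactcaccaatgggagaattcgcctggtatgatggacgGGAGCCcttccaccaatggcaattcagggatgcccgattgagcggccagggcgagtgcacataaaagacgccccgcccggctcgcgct
Id4: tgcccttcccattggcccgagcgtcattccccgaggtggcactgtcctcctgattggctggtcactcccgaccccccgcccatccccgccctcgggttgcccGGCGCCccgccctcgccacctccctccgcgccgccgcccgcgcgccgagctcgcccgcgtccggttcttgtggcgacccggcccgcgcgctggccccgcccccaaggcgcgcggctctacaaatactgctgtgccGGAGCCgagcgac
GGCGCC occurred once in the windows of Bmpr1a, Bmpr2, Id2 and Id4, starting 198, 105, 231 and 148 bases before the start, and not in that of Smad6. GGAGCC occurred at 102 and 18 bases before the start of Smad6, at 88 before that of Id2 and at 13 before that of Id4. None of the 5 windows held CAGAC or GTCTG, and no match overlapped another. Of the genes not printed, Bmpr1b, Smad5 and Id3 had CAGAC or GTCTG in a window, and the window of Smad1 held none of the 3 motifs. Of 32536 promoter windows of the same length, 9.65% held GGCGCC, 26.1% held GGAGCC and 42.2% held CAGAC on either strand, and the 5 windows are rich in G and C (from 62.8% in Id2 to 78.8% in Bmpr1a, against a median of 52.4%). A match is a description of the letters and not evidence of binding.

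Comparing mutant with control posterior palate, the receptors Bmpr1a and Bmpr2 rose modestly, and no SMAD or Id gene passed the test by its brightest probe set. Of the 10 genes 2 were called at an adjusted p under 0.05 (limma, Benjamini-Hochberg over 18193 genes), where 13.5% of all genes were called and 7.73% were called higher, so the share among these 10 is near that of the array. Among all calls 57.5% were higher in mutants, a share of 40.5% with median centring of each array and of 45.4% with quantile normalization run again. Of the 10 differences 5 were positive, with a median of 0.01 on the log2 scale, beside 58.3% positive and a median of 0.04 over all genes.

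Bmpr1a, the type I receptor that most tissues use for BMP2 and BMP4, read 10.88 at the lowest, 10.93 at the median and 11.07 at the highest in control posterior arrays, and 11.04, 11.16 and 11.26 in mutant arrays. Only the lowest mutant array fell below the highest control, so the groups barely overlapped. Its mean was 10.95 ± 0.07 in controls and 11.16 ± 0.08 in mutants (SD, n = 6 each), higher by 0.22 on the log2 scale (SE 0.06, limma adjusted p = 0.0205), or 1.16-fold. The call ended without control posterior array 4 or 5 (adjusted p = 0.0514 and 0.0535), with median centring of each array (0.133) and with the 4 sets of arrays as a random block (0.126, where 3.23% of all genes were called). It also ended with mutant arrays 4 to 6 only (0.0642), control posterior arrays 1 to 3 only (0.320), arrays 1 to 3 of both groups (0.172), arrays 4 to 6 of both groups (0.0858) and a threshold of 0.01, in all 7 of 17 alternatives. Without mutant array 1 it held (0.20, adjusted p = 0.0397, where 11.5% of all genes were called).

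When all 45037 non-control probe sets were tested, 6 of the 27 were called, 5 of them higher, where 10.7% of all probe sets were called and 6.44% were called higher. Bmpr1a accounts for 3 of these, out of its 6 probe sets. Probe set 1425493_at read 8.63, 8.76 and 8.84 at the lowest, median and highest in control posterior arrays and 9.02, 9.20 and 9.41 in mutants, without overlap (5.47% of all probe sets did not overlap). It rose by 0.44 (SE 0.08, limma adjusted p = 0.00146) and was called in each of 7 alternatives and 18 fits without 1 array. Adjusted p went up to 0.0246, the value with the sets as a random block, where 2.64% of all probe sets were called. The fits of single sets were run on genes alone and are not among these 7. Probe set 1425494_s_at rose by 0.31 (adjusted p = 0.0132) and the brightest, 1425492_at, by 0.22 (adjusted p = 0.0292 in this larger family). The other 3 differed by 0.14, 0.14 and -0.11 and were not called; the last, 1445413_at, read at most 5.03 on every array, below the array medians of 5.74 to 5.90.

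Bmpr2, the type II receptor that activates the type I chain, read 10.37, 10.43 and 10.67 at the lowest, median and highest in control posterior arrays and 10.54, 10.84 and 11.20 in mutants. It rose by 0.36 (SE 0.11, adjusted p = 0.0295, limma), from 10.47 ± 0.11 to 10.84 ± 0.25 (SD, n = 6 each), or 1.29-fold. Mutant arrays 2 and 3 (10.57 and 10.54) lay within the control range, and mutant array 1 (10.83) and arrays 4 to 6 (11.02, 10.85 and 11.20) above it. The call ended without any 1 of control posterior arrays 3 to 6 or mutant arrays 4 and 6 (adjusted p up to 0.0694), with only the 12 arrays compared (0.0626, where 8.64% of all genes were called), with median centring (0.101), with quantile normalization run again (0.0524), with the mean of its probe sets (0.15, 0.329) and with the random block (0.131). In all, 10 of 17 alternatives ended it, with adjusted p up to 0.620 with arrays 1 to 3 of both groups. It held without mutant array 1 (0.37, 0.0434). Its other probe sets, dimmer at means of 6.61 and 5.07 in mutants, differed by 0.02 and 0.06.

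Bmpr1b, a type I receptor best known from limb cartilage, was not called, at 6.92 ± 0.24 in controls and 6.97 ± 0.59 in mutants, a difference of 0.05 (95% interval -0.41 to 0.52, adjusted p = 0.903). Mutant values ran from 6.32 to 7.84, on both sides of the control range of 6.50 to 7.18. Its other probe sets averaged 3.24 to 4.54 in the posterior groups, below the array medians.

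**Figure D1:**
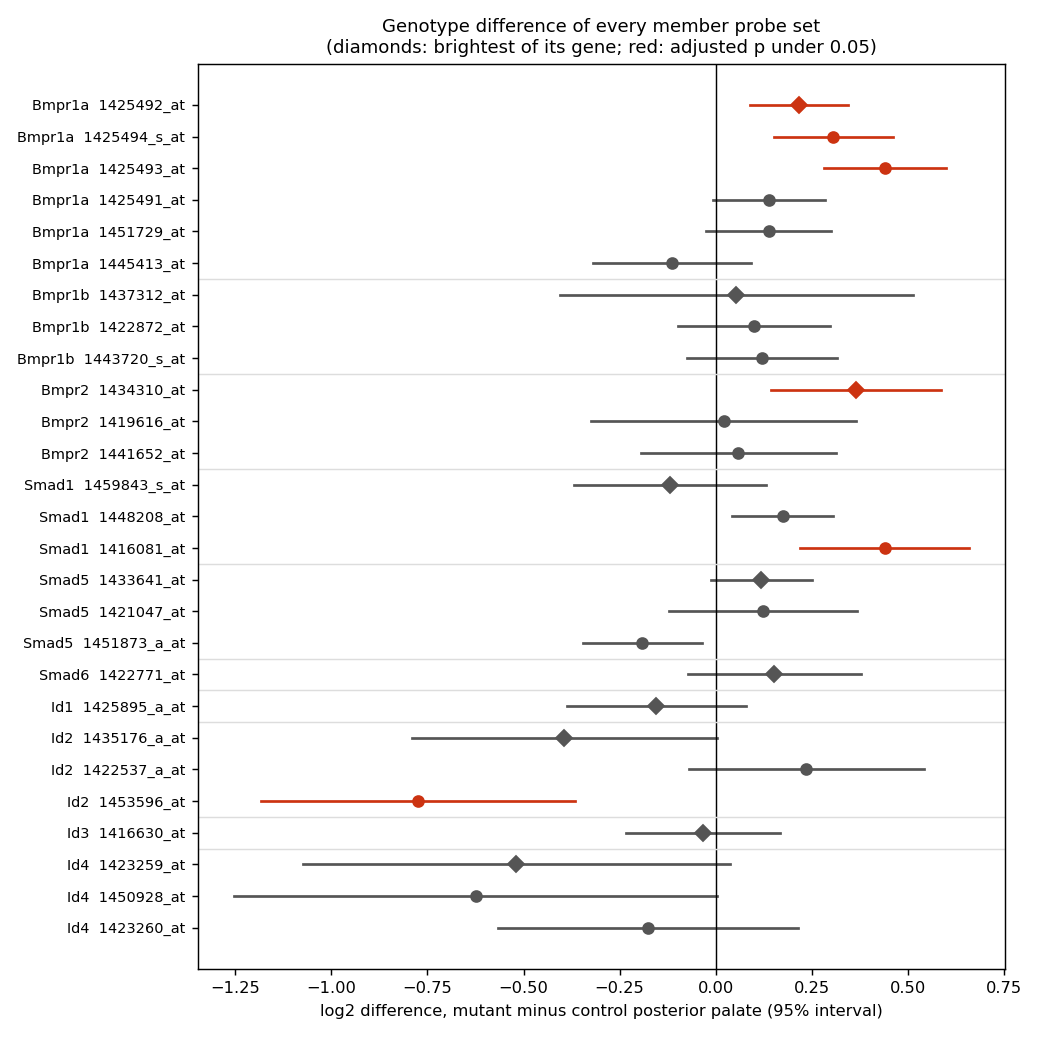
Log2 difference of mutant minus control posterior palate for each of the 27 probe sets, with 95% intervals from limma; diamonds are the brightest probe set of a gene and red marks an adjusted p under 0.05. The 3 red Bmpr1a probe sets lie between 0.22 and 0.44, and the Smad1 and Id2 probe sets spread over both sides of 0.

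Among the SMADs no gene was called for genotype. Smad5, which carries the same signal as Smad1, read 9.81 ± 0.06 in controls and 9.93 ± 0.12 in mutants (difference 0.12, adjusted p = 0.207), and its other probe sets differed by 0.12 and -0.19. Smad6, the inhibitor that BMP signals induce, read 8.48 ± 0.11 and 8.63 ± 0.23 (difference 0.15, adjusted p = 0.380). Its highest mutant value, 9.04, was that of mutant array 1, and without this array the difference was 0.07.

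The probe sets of Smad1 disagreed. The brightest, 1459843_s_at, read 10.52 to 10.65 in control posterior arrays, while mutant arrays 1 to 3 read 10.34, 10.26 and 9.93 and mutant arrays 4 to 6 read 10.74, 10.72 and 10.80. Every mutant value thus lay outside the control range, below it in the first set and above it in the second, and the mean difference was -0.12 (95% interval -0.37 to 0.13, adjusted p = 0.553). The dimmer probe set 1416081_at read 7.87, 7.93 and 8.10 at the lowest, median and highest in controls and 8.17, 8.31 and 8.88 in mutants, without overlap. It rose by 0.44 (SE 0.10, adjusted p = 0.0117 over probe sets), was called in all 18 fits without 1 array and lost the call with the random block (adjusted p = 0.0885). The third, 1448208_at, differed by 0.17 (adjusted p = 0.0829). Averaging the probe sets turned the sign of the Smad1 difference to 0.16 (adjusted p = 0.129), so no direction is given for the gene.

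The 4 Id genes had negative differences in mutants, also with median centring and quantile normalization, and none was called. Id4 averaged 10.47 ± 0.13 in control and 9.95 ± 0.84 in mutant posterior palate (difference -0.52, adjusted p = 0.219). Mutant arrays 1 to 3 read 8.38, 9.90 and 10.07 and arrays 4 to 6 read 9.99, 10.60 and 10.77, against 10.23 to 10.61 in controls. Mutant array 1 was thus the lowest by a wide margin, and without it the difference was -0.20 (adjusted p = 0.375). The other Id4 probe sets differed by -0.62 and -0.18 and had the same lowest array, at 7.37 and 7.31.

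Id2 averaged 11.71 ± 0.14 in controls and 11.31 ± 0.55 in mutants (difference -0.39, adjusted p = 0.187). The difference was -0.23 without mutant array 1 (adjusted p = 0.379) and -0.53 without mutant array 6, where it was called (adjusted p = 0.0498). Mutant arrays 1 to 3 read 10.51, 10.95 and 11.13, below every control posterior array (11.52 to 11.92), while arrays 4 to 6 read 11.57, 11.72 and 11.99. Its probe sets disagreed. The bright probe set 1422537_a_at had a positive difference of 0.24 (adjusted p = 0.333), and the dim probe set 1453596_at fell by 0.77 (SE 0.19, adjusted p = 0.0160 over probe sets). That probe set read 5.76, 6.24 and 6.51 at the lowest, median and highest in controls and 5.02, 5.40 and 5.76 in mutants, a contact of the 2 groups at 5.76. It was called in all 18 fits without 1 array and lost the call with the random block (adjusted p = 0.135). Every mutant value lies below the median of its array, and a level there can include background, so it is reported as a probe set and not as the gene.

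Id1 read 11.31 ± 0.10 in controls and 11.16 ± 0.29 in mutants (difference -0.15, adjusted p = 0.393), with mutant array 1 lowest at 10.64. Without it the difference was -0.05. Id3 read 11.60 ± 0.12 and 11.57 ± 0.21 (difference -0.03, 95% interval -0.23 to 0.17, adjusted p = 0.854).

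**Figure D2:**
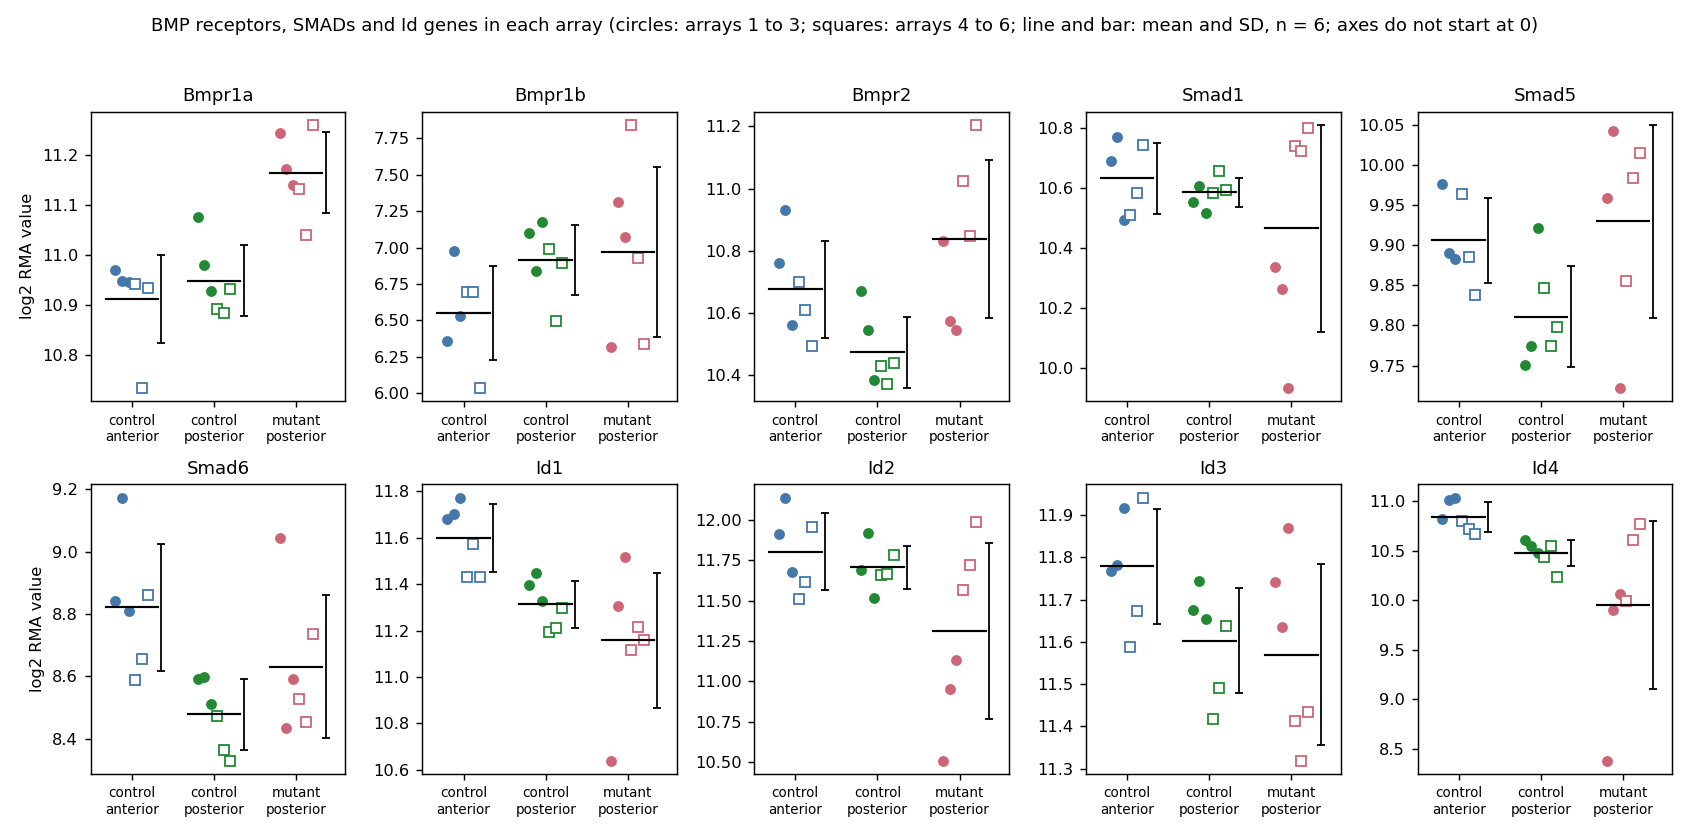
Log2 values of the brightest probe set of each gene on every array, circles for arrays 1 to 3 and squares for arrays 4 to 6 of a group, with the group mean and SD (n = 6). Each panel has its own axis, which does not start at 0. Bmpr1a is higher in mutants with little overlap, and mutant circles of Smad1 and Id2 lie below the mutant squares.

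The mutant values of several genes parted by set, so mutant arrays 1 to 3 were set against mutant arrays 4 to 6 in a model of group and set that was added after seeing the data. By brightest probe set 5 of the 10 genes differed, where 22.8% of all genes did. Id4 was lower in arrays 1 to 3 by 1.00, Id2 by 0.89, Smad1 by 0.58 and Bmpr2 by 0.38. Id3 was higher by 0.36 (limma, adjusted p of these genes from 0.00118 to 0.0343). The other probe sets of Smad1 and Id2 overlapped between the mutant sets. Smad1 probe set 1416081_at read 8.21 to 8.88 in mutant arrays 1 to 3 and 8.17 to 8.41 in mutant arrays 4 to 6. Tissue markers moved with this split. The mean of the 3 posterior palate markers was 7.76 to 9.15 in mutant arrays 1 to 3 and 9.48 to 10.57 in arrays 4 to 6, and that of 7 palate mesenchyme markers was 10.82 to 11.25 and at least 11.48. Their part in the split was not tested. Between control posterior arrays 1 to 3 and 4 to 6, limma called 0 of 18193 genes (0%; 1397 had an unadjusted p under 0.05, 0 of the 10 among them). The split itself differed between mutants and controls for 2 of the 10 genes, Smad1 (adjusted p = 0.0299) and Id2 (0.0276), where 11.6% of all genes did, and not for Bmpr2 (0.0667), Id4 (0.115) or Bmpr1a (0.809).

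Each mutant set was also compared with all 6 control posterior arrays, again by the brightest probe set of each gene. Mutant arrays 1 to 3 gave 4 calls among the 10 genes, where 27.4% of all genes were called: Smad1 at -0.41, Id2 at -0.84, Id4 at -1.02 and Bmpr1a at 0.24. Mutant arrays 4 to 6 gave 1, Bmpr2 at 0.55 (adjusted p = 0.00225), where 18.2% of all genes were called. In that set Smad1 differed by 0.17, Id2 by 0.05, Id4 by -0.02 and Bmpr1a by 0.20 (adjusted p = 0.0642). Other probe sets of Smad1 and Id2 did not all fall in mutant arrays 1 to 3. Smad1 1448208_at read 10.49 to 10.68 there, against 10.31 to 10.55 in posterior controls, and 1416081_at read 8.21 to 8.88, against 7.87 to 8.10. For Id2, 1422537_a_at read 10.84 to 11.35, against 10.79 to 11.18, and 1453596_at read 5.02 to 5.58, against 5.76 to 6.51. Mutant arrays 1 to 3 were also set against control posterior arrays 1 to 3 alone, which share only their numbers. Id2 was called (limma, adjusted p = 0.0292) and Smad1 (0.0957) and Id4 (0.110) were not, where 9.59% of all genes were. In the model of group and set this contrast called Smad1 (adjusted p = 0.0181), Id2 (0.0038) and Id4 (0.0278), where 18.5% were. For arrays 4 to 6 of both genotypes that model called Bmpr2 (0.00388) and Bmpr1a (0.0468), where 14.7% were. No set held both genotypes, so a difference between mutant sets cannot be told apart from a difference between the embryos or dissections they hold.

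**Figure D3:**
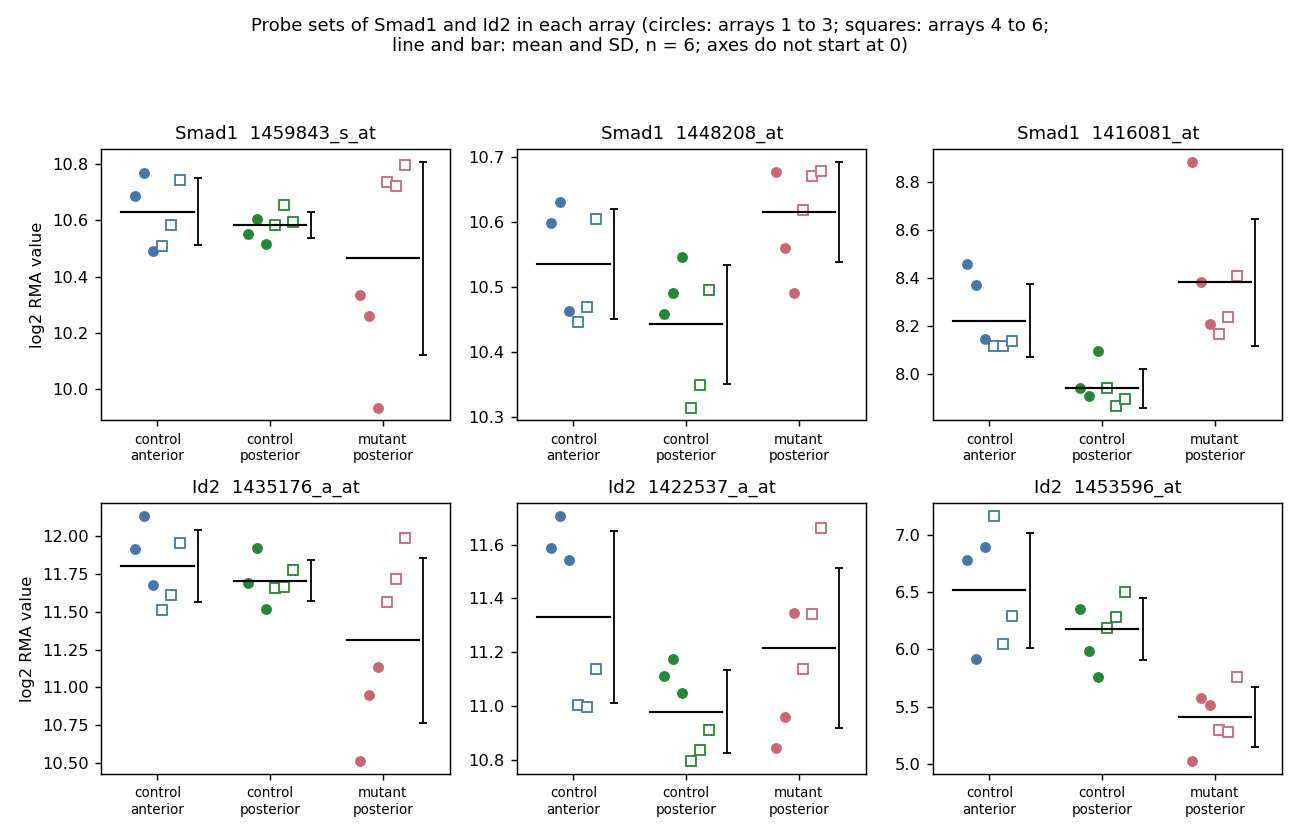
Log2 values of the 3 probe sets of Smad1 (top) and of Id2 (bottom) on every array, circles for arrays 1 to 3, squares for arrays 4 to 6, with means and SD. The brightest probe set of each gene splits the mutant arrays by set, while 1416081_at of Smad1 is higher and 1453596_at of Id2 lower in nearly all mutant arrays than in control posterior arrays.

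Comparing posterior with anterior palate in controls, none of the 10 genes was called, where 3.82% of all genes were (limma, all 18 arrays). An unadjusted p under 0.05 was seen for 2 of them, Smad6 and Id1. Of the 10 differences 8 were negative, meaning lower in posterior palate, with a median of -0.14, against -0.02 over all genes and 45.9% positive. Among all region calls 44.5% were higher in posterior palate, 71.2% with median centring, which also made the Smad1 difference positive, and 55.2% with quantile normalization run again. None of the 27 probe sets was called either (1.86% of all probe sets were; 6 of the 27 had an unadjusted p under 0.05), and 3 of the 27 did not overlap between regions (4.48% of all).

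The most negative values were those of Id4, Smad6 and Id1. Smad6 averaged 8.82 ± 0.20 in anterior and 8.48 ± 0.11 in posterior controls (difference -0.34, SE 0.11, adjusted p = 0.0863). Its anterior values ran from 8.59 to 9.17 and its posterior values from 8.33 to 8.60, touching only at 8.59 and 8.60. Id1 averaged 11.60 ± 0.15 and 11.31 ± 0.10 (difference -0.29, adjusted p = 0.160), with anterior values of 11.43 to 11.77 and posterior values of 11.20 to 11.45.

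Id4 did not overlap between the regions, at 10.66 to 11.03 in anterior and 10.23 to 10.61 in posterior controls, as 6.32% of all genes did not. Its difference was -0.37 (SE 0.27, adjusted p = 0.475), with a standard error that takes in the wide mutant spread. Its probe set 1450928_at did not overlap either (9.98 to 10.65 and 9.53 to 9.93). Id3 differed by -0.18 (adjusted p = 0.316) and Id2 by -0.10 (adjusted p = 0.828), and all 3 Id2 probe sets had negative differences, down to -0.35.

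The spread estimate decides these calls. The fit shares its variance with the mutants, and the median SD over genes was 0.233 there, 0.128 in posterior and 0.152 in anterior controls. In a fit of the 12 control arrays alone, where 11.8% of all genes were called, 3 of the 10 genes were lower in posterior palate: Id4 (adjusted p = 0.0118), Id1 (0.0258) and Smad6 (0.0289). In the same fit over probe sets 7 of 27 were lower, where 6.92% of all were called: all 3 of Id4, those of Id1 and Smad6, 1416081_at of Smad1 and 1419616_at of Bmpr2. Without mutant array 1 in the shared fit, Smad6 (adjusted p = 0.0291) and Id1 (0.0436) were called, where 6.67% of all genes were, and over probe sets those of Smad6 and Smad1 (1416081_at), where 3.62% of all were. With the sets as a random block Smad6 was called (0.0398, where 7.27% of all genes were). The region difference of Smad6 was -0.37 within control arrays 1 to 3 and -0.31 within 4 to 6, that of Id1 -0.33 and -0.24, and that of Id4 -0.41 and -0.32, and none was called within a set (1.46% and 1.36% of all genes were). The test of the difference between sets called 0 of 18193 genes by limma (0%; 412 had an unadjusted p under 0.05, 0 of the 10 among them).

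**Figure D4:**
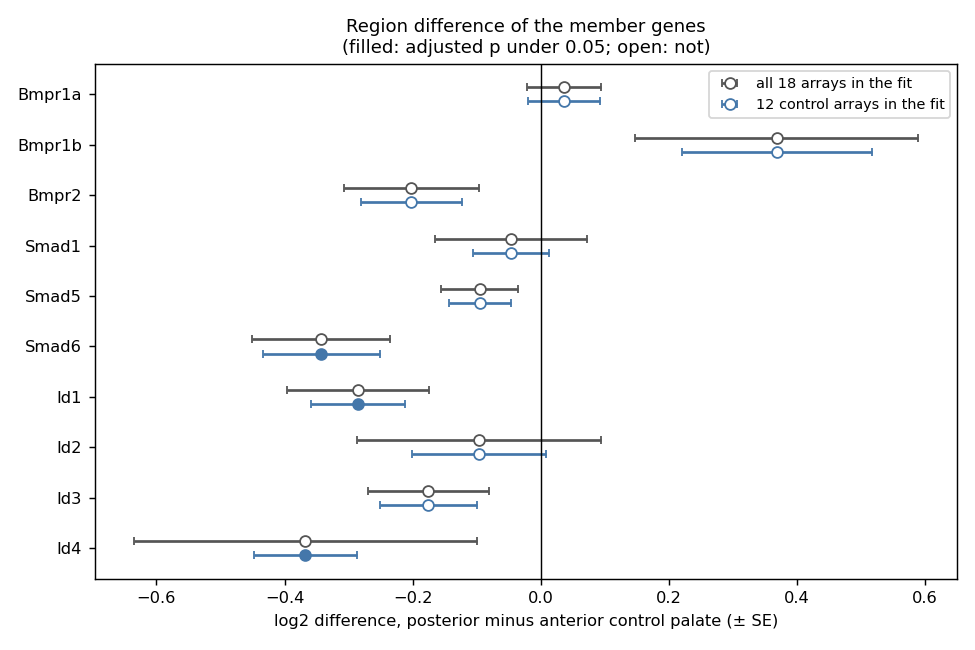
Log2 difference of posterior minus anterior control palate for each gene, with its standard error, from the fit of all 18 arrays (grey) and of the 12 control arrays alone (blue); filled symbols have an adjusted p under 0.05. Estimates are the same in both fits, and Smad6, Id1 and Id4 are filled only in the fit of 12 arrays.

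No receptor and neither Smad1 nor Smad5 was called by region. Bmpr2 was 10.68 ± 0.16 in anterior and 10.47 ± 0.11 in posterior controls (difference -0.20, adjusted p = 0.298), Bmpr1a 10.91 ± 0.09 and 10.95 ± 0.07 (0.04, 95% interval -0.09 to 0.16), and Bmpr1b 6.55 ± 0.32 and 6.92 ± 0.24 (0.37, adjusted p = 0.372). Smad5 differed by -0.10 (adjusted p = 0.397) and Smad1 by -0.05 (adjusted p = 0.873). The Smad1 probe set 1416081_at did not overlap, at 8.12 to 8.46 in anterior and 7.87 to 8.10 in posterior controls (-0.28, adjusted p = 0.183).

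Tissue content moved with region. All 11 skeletal muscle markers rose in posterior palate, and their mean log2 level ran from 5.26 to 7.55 in anterior controls, 9.20 to 10.36 in posterior controls and 9.10 to 11.84 in mutants. Endothelial markers, a list relevant because vessels express Smad6, Id1 and Id3, gave 0 calls among 10 by limma for region and 0 for genotype (0 and 1 with an unadjusted p under 0.05), with means of 7.46 to 8.48 in anterior controls, 7.72 to 8.13 in posterior controls and 7.29 to 8.38 in mutants. Epithelial markers gave 0 calls among 10 by limma in either comparison (2 with an unadjusted p under 0.05 in each), with means of 11.17 to 11.83, 10.99 to 11.38 and 8.87 to 11.61 in the same order. For genotype, cartilage and bone markers were called higher for 2 of 8 and 2 of 5, where 7.73% of all genes were. Cartilage means were 6.86 to 7.65 in posterior controls and 7.32 to 9.70 in mutants. Skeletal muscle gave 1 higher call of 11, palate mesenchyme 1 of 7 and glia and neuron 1 of 5. Macrophage and leukocyte markers gave 1 higher and 2 lower of 8, and red cell markers 2 lower of 6. Of all genes 5.73% were called lower. An array value has no true zero, so absence of a marker cannot be read from it. The part of these tissues in the values of the 10 genes was not tested.

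The remaining pathway was read from a list of 66 genes ordered by role, of which 61 were measured. For genotype 5 were called, all higher in mutants, against 13.5% of all genes called, and the median difference of the 61 was 0.17 against 0.04 over all genes. Of 10 other receptors and co-receptors 2 rose. Tgfbr3, betaglycan, a co-receptor that binds TGF-beta2 and also BMPs, read 8.76, 8.98 and 9.38 at the lowest, median and highest in control posterior arrays and 9.49, 9.83 and 10.26 in mutants, without overlap (0.86, SE 0.16, adjusted p = 0.0019; 6.55% of all genes did not overlap). It kept its call with the random block and in every fit without 1 array, and lost it in 2 of 17 alternatives (adjusted p up to 0.108, limma). Eng, endoglin, a co-receptor of endothelium, rose by 0.43 (adjusted p = 0.0303). Acvr1, another type I receptor for BMPs, differed by -0.11 (adjusted p = 0.602).

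Among 13 secreted antagonists 1 rose, Chrd, chordin, which binds BMPs in the extracellular space: 6.16, 6.56 and 6.65 in controls and 6.79, 6.88 and 7.27 in mutants, without overlap (0.46, SE 0.12, adjusted p = 0.0168). Its call ended in 6 of 16 alternatives, among them the random block (0.0972), with adjusted p up to 0.321 (limma), and in no fit without 1 array. The other antagonists named, Nog at 0.29 (adjusted p = 0.0761) and Grem1 at 0.49 (0.193), were not called. Nog read at most 5.08 on every array, below the array medians, where a level can include background. Of 8 ligands and processing genes Bmp6 rose, by 0.37 (adjusted p = 0.0440), while Bmp2, Bmp4 and Bmp7 differed by -0.11, 0.20 and -0.03 and were not called. None of 11 other SMADs and regulators was called (2 had an unadjusted p under 0.05), among them the shared partner Smad4 (-0.12), the inhibitor Smad7 (-0.12) and Smad9 (-0.07). None of 10 other BMP targets was called either (2 had an unadjusted p under 0.05), with Msx1 at 0.48 and Msx2 at -0.17. Msx1 read 9.83 on mutant array 1, 5.86 to 7.64 on the other mutant arrays and 6.11 to 7.14 in posterior controls. In fits without 1 array its difference went down to -0.08. Of 9 helix-loop-helix partners of Id proteins only the late myogenic factor Myf6 rose (1.55, SE 0.46, adjusted p = 0.0329). Calls of Eng, Bmp6 and Myf6 ended with the random block (adjusted p = 0.172, 0.170 and 0.164) and without mutant array 1 (0.0644, 0.0599 and 0.0568); in all, 6, 12 and 7 of 18 fits without 1 array ended them, up to 0.0786 and 0.0844 without control posterior array 5 for Eng and Myf6 and 0.104 without array 6 for Bmp6.

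Between the control regions 12 of the 61 passed the test, 6 with more signal in posterior palate and 6 with less, against 3.82% of all genes. Those lower included 3 of 10 BMP targets, Msx1 by -2.86 (adjusted p = 0.00377), Gata3 by -1.81 (adjusted p = 0.0410) and Tbx2 by -0.63 (adjusted p = 0.0137), with the ligand Bmp6 (-0.96, adjusted p = 8.24e-05), the antagonist Sostdc1 (-0.97, adjusted p = 0.00493) and the ubiquitin ligase Smurf1 (-0.34, adjusted p = 0.00493), which marks SMAD1 and SMAD5 for breakdown. Bmp6 read 7.75 to 8.45 in anterior and 7.05 to 7.59 in posterior controls. Those higher were the co-receptors Hjv (2.74, adjusted p = 0.000176), which is expressed in skeletal muscle, and Rgmb (0.40, adjusted p = 0.0324), the antagonist Grem1 (1.12, adjusted p = 0.0131) and the myogenic factors Myog (4.02), Myf5 (3.83) and Myod1 (2.92). The muscle marker list rose with them, and these 3 myogenic factors stand in it too. Averaging the Smurf1 probe sets ended its call (adjusted p = 0.242). With replicate numbers as a block, which control arrays may share, Rgmb (adjusted p = 0.0506) and Gata3 (0.0682) were not called. Each of these calls also ended in 9 of 18 fits without 1 array, with adjusted p up to 0.0927 without control posterior array 6 for Rgmb and 0.0979 without control anterior array 3 for Gata3. With the same block Nog, which lay below the array medians on every array, was called for genotype (limma, adjusted p = 0.0456).

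**Figure D5:**
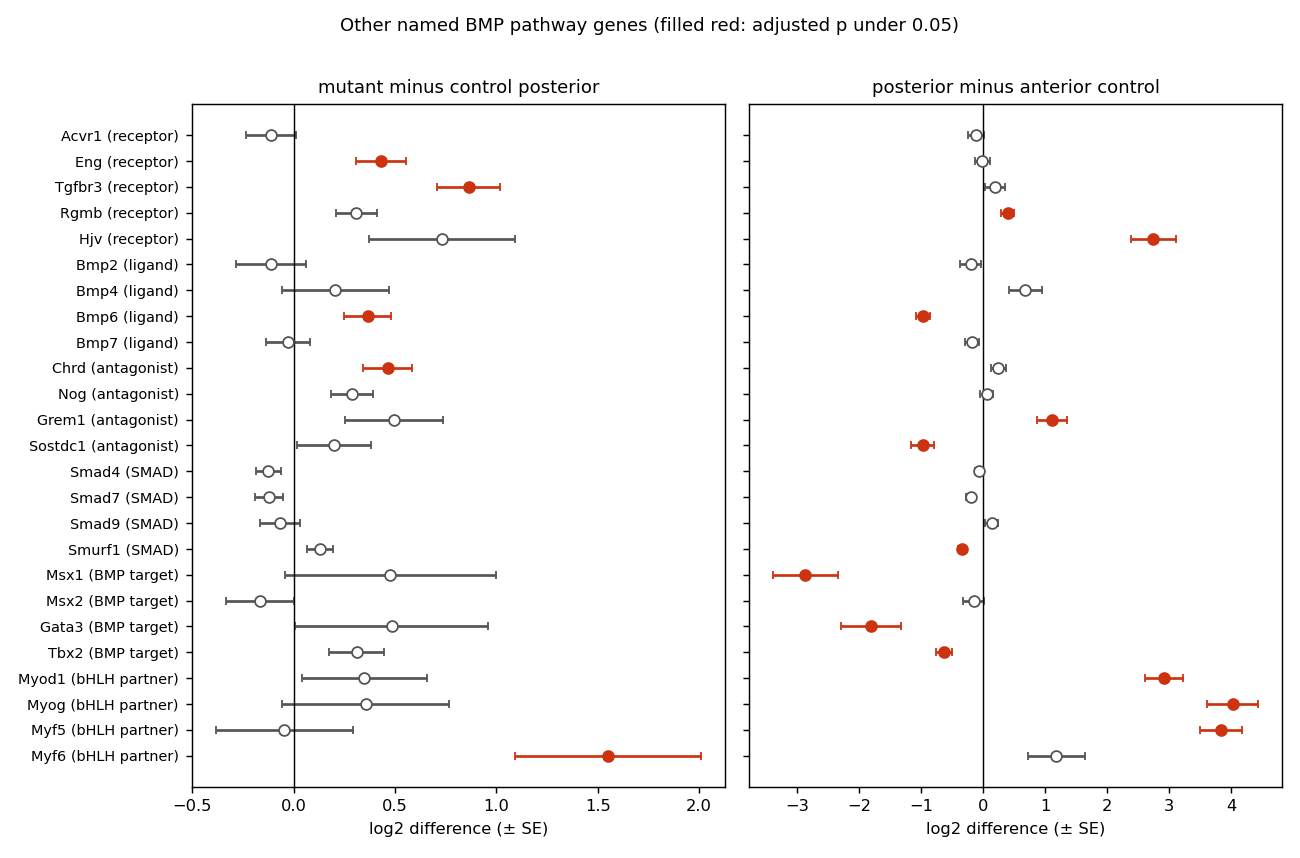
Log2 differences with standard errors of the named pathway genes outside the 10, for genotype (left) and region (right), with separate horizontal axes; filled red symbols have an adjusted p under 0.05. The 5 genotype calls all lie right of 0, and the region calls run from -2.86 for Msx1 to 4.02 for Myog.

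The Id genes and Smad6 share a pathway, so their array-to-array deviations from the group means were compared over 18 arrays, permuting within groups (100000 resamples, 2-sided permutation test, 10 pairs). No pair passed adjustment. The highest was Id2 with Id4, with Pearson's r of 0.80 (p = 0.00519, adjusted p = 0.0519) and Spearman's rho of 0.55 (p = 0.0434, adjusted p = 0.203). It was 0.71 among arrays 1 to 3, 0.38 among arrays 4 to 6, 0.12 among the 12 controls and 0.46 without the 2 arrays farthest from the median of Id2, so the relation rests on the mutant arrays. Id1 with Id4 gave r of 0.67 (p = 0.0848, adjusted p = 0.424) and rho of 0.56. The r of this pair was 0.63 among the 12 controls, 0.72 among the 6 mutants and 0.22 without its 2 farthest arrays. It was 0.98 among arrays 1 to 3 and 0.12 among arrays 4 to 6.

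As a description, the genes whose deviations were most like those of each of these 5 over 18 arrays, of 18193 genes, are named by Pearson's r. Pax9 (0.96), Ahr (0.95), Meis2 (0.95), Ankmy2 (0.95) and Hdac8 (0.95) were nearest to Id4; over the 12 controls alone Pax9 had 0.63 and Meis2 0.38. Macroh2a2 (0.95), Chsy3 (0.94), Nr2f1 (0.94), Egfl6 (0.94) and Zfp383 (0.94) were nearest to Id2, with 0.76 to 0.84 in controls. Col11a2 (0.95), Klf2 (0.93), Prex1 (0.92), Dlx5 (0.91) and Epb41l2 (0.91) were nearest to Smad6, and in controls these kept 0.93, 0.93, 0.92, 0.92 and 0.83. Psme3ip1 (0.95), Coch (0.91), Wdr13 (0.90), Exoc1 (0.89) and 3110040M04Rik (0.89) were nearest to Id1, and Snhg16 (0.91), Bcl2l2 (0.88), Zbtb48 (0.88), Cd79b (0.87) and Tspan4 (0.87) to Id3. The arrays share their sets and tissue content in every such comparison.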

How the data were processed

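The deposited log2 values were made by the authors with RMA, the tool (no version) that the submitters' notes name. RMA corrects background and draws arrays towards a common distribution, so a shift of most genes would be removed in part or in whole. The deposited arrays were not fully alike. Their median log2 values were 5.87 to 5.90 on mutant arrays 1 to 3 and 5.74 to 5.80 on all other arrays. The means were 6.35 to 6.37 and 6.26 to 6.28. Median centring and renewed quantile normalization are among the alternatives for this reason. The labels list 6 samples per group where the design text gives 5, and all 6 were used. They do not say which arrays share an animal or whether samples are pools, so each p-value reflects only how these samples vary, which may be technical. Of 45101 probe sets 34958 had 1 symbol, 932 several and 9211 none listed, and 64 are controls.

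A single limma model (version 3.58.1, R 4.3.3, statmod 1.5.0) of all 3 groups, with lmFit and then eBayes (15 residual degrees of freedom), gave every 2-sided test. The number of arrays limits the precision. Tested on simulated data over 18193 genes, the genotype fit recovered 66.0%, 88.0% and 98.0% of genes changed by 0.5, 1 and 2 on the log2 scale, with 1.16% of calls false. The simulated noise was independent between arrays, with the same spread in all groups and no sets of arrays. These rates check the code and do not carry over to the real arrays, where sets lie within genotypes and mutants vary more. Members and gene lists were chosen with earlier results of these data known. Named genes are the 10 members, called pathway genes, a fixed set of core pathway genes, Tgfbr2 and the 5 genes nearest to each Id gene and Smad6. Alternatives cover probe set choice, scaling, variance model, array weights, blocks, sets and leaving out arrays. Same-numbered control anterior and posterior arrays had correlated deviations (0.111 to 0.430 in all 6 pairs), but for arrays 1 and 2 their own number was not the best match. The labels do not pair them, so the main fit used no block, and replicate numbers entered as a block only in an alternative. Between genotypes only 2 of 6 pairs exceeded 0.1. Correlations and figures used Python 3.11.15, scipy 1.17.1 and matplotlib 3.10.9.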

Additional observations from a re-analysis of the deposited data

Results flagged for a closer look

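In 30 groups of 6 arrays (10 genes in 3 groups), the lowest or highest array stood far from its group in 2, where chance alone gives about 1 in 20. Bmpr1a read 10.73 on control anterior array 5, against 10.93 to 10.97 on the other anterior arrays; without that array the region difference was 0.00 (adjusted p = 0.996, limma) and the genotype difference was 0.22 (adjusted p = 0.0147). Id4 read 8.38 on mutant array 1, against 9.90 to 10.77 on the other mutant arrays. The same array had the lowest mean of epithelial markers (8.87), and the part of this in the Id4 value was not tested.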

How the results depend on the processing

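Whole tissue, 6 arrays per group and sets of arrays that lie within genotypes limit every comparison here. Of the 6 member probe sets called for genotype, 1425493_at of Bmpr1a alone kept its call in all 7 alternatives run on probe sets and without each array. These 7 are fewer than the alternatives run on genes and leave out the fits of single sets and the stricter threshold. No called difference changed sign in any fit; differences called in neither fit changed sign 20 times, in 7 of the 20 member comparisons, and 38 times, in 15 of the 50 comparisons of named pathway genes. The cause of the changes below was not tested.

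For genotype, genes called (2449) numbered 1572 with only the 12 arrays compared, 588 with the 4 sets as a random block, 905 at an adjusted p under 0.01, 4986 with mutant arrays 1 to 3 only, 261 and 1538 with control posterior arrays 1 to 3 and 4 to 6 only, and 1512 to 2735 without 1 array. Members called (2) numbered 0 with median centring, the random block, the stricter threshold and control posterior arrays 1 to 3 only, and 4 with mutant arrays 1 to 3 only. They numbered 1 with the mean of a gene's probe sets, renewed quantile normalization, the 12 arrays, mutant arrays 4 to 6 only, control posterior arrays 4 to 6 only, arrays 1 to 3 of both groups and arrays 4 to 6 of both groups, and 0 to 2 without 1 array (0 without control posterior array 4 or 5). Other pathway genes called (5) numbered 3 with median centring and with quantile normalization, 12 with array weights, 1 with the random block and with the stricter threshold, and 2 to 8 without 1 array. Member probe sets called (6) numbered 3 with median centring, 1 with the random block and 4 to 6 without 1 array.

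For region, genes called (695) numbered 3356 with array weights, 2151 with the 12 arrays, 1322 with the random block, 251 at the stricter threshold, 1587 with control sets as a fixed block, 82 and 16 with control arrays 1 to 3 and 4 to 6 only, and 389 to 1213 without 1 array (1213 without mutant array 1). Members called (0) numbered 2 with array weights, 3 with the 12 arrays, 1 with the random block and with the fixed block, in both Smad6, and 0 to 2 without 1 array. Other pathway genes called (12) numbered 21 with array weights and 10 to 13 without 1 array. Member probe sets called (0) numbered 7 with the 12 arrays and 0 to 2 without 1 array.

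With the replicate block, 2495 genes and 2 members were called for genotype and 677 genes and 0 members for region; besides ending the calls of Rgmb and Gata3 and adding that of Nog for genotype (0.0456), it changed no call of a named gene. Among calls, the share of higher genes was 57.5% for genotype as deposited, 40.5% with median centring and 45.4% with quantile normalization, and 44.5%, 71.2% and 55.2% for region.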
